A study of Triticum turgidum subsp. durum with 12 samples.

Results

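The genes described here are the high confidence models at the start of wheat chromosome 2A, with identifiers from TraesCS2A01G000100 to TraesCS2A01G039900. They were chosen by identifier alone, but after the fold changes among all 3 lines had been seen there, so the counts of differences within them are a description. Identifiers of this annotation were numbered in steps of 100 along each chromosome, from the end of the short arm, so the identifier order follows the order of genes. The unfiltered table lists 399 such identifiers. Of these, 232 were in the count table, against 72120 genes in that table in all, and these 232 are the members described below. The other 167 had too few reads for the count table, and none reached more than 0.154 TPM, a transcript level scaled for gene length and library size, in any library. The genes that follow on the same chromosome, TraesCS2A01G040000 to TraesCS2A01G080000, served for comparison (198 in the count table).

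The RNA-seq experiment compared the leaves of 3 lines of the tetraploid durum wheat Kronos under short days of 8 h light and 16 h dark, with 4 plants per line at 8 weeks of age and all carrying the *Ppd-A1a* allele. The *phyB*-null line carries EMS-induced null alleles of both homeologs (A and B) of the red-light photoreceptor gene *PHYB*, and the *phyC*-null line carries those of *PHYC*. Both came from a TILLING population and were backcrossed to Kronos and selfed. WT was the Kronos parent of the backcross, not a sister line, and the same 4 WT libraries served both mutants. WT apices had begun spike development at sampling, whereas those of both mutants were still vegetative. Each mutation was sampled in a single line, so phytochrome genotype and any other difference between the stocks cannot be told apart in these comparisons. The tables used here pair neither *PHYB* nor *PHYC* with an identifier, so the mutated genes gave no check of the labels.

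The distal end of a wheat chromosome arm is a gene-rich and highly recombining region, and it is where families of disease resistance genes, receptor kinases and other fast-changing genes are concentrated. Plants produced by EMS mutagenesis and backcrossing can keep blocks of linked chromosome that differ from the recurrent parent, and expression differences between near-isogenic lines can lie in such blocks. That is background to the question asked here, which is where along the gene order the lines differed, which line stood apart, and in which direction.

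Library totals in the count table ran from 37365465 to 58944135. Scaling factors computed by the TMM method ranged from 0.761 in *phyC*-null replicate 3 to 1.12, so TPM of that library were low for most genes relative to scaled counts. As a check of the tissue, the Rubisco small subunit gene TraesCS2A01G066700, a defining leaf transcript, stood at a mean of 6161.1 (*phyB*-null), 6233.2 (*phyC*-null) and 5308.8 TPM (WT). Other Rubisco small subunit genes checked averaged 604.2 to 4186.7 TPM. Genes described as chlorophyll a-b binding were less even, in the same order of lines. TraesCS1A01G403800 averaged 42.1, 444.0 and 248.6 TPM, TraesCS1B01G433300 49.7, 314.3 and 266.3, TraesCS4A01G227300 312.0, 253.4 and 182.2, and TraesCS1B01G388300 0.337, 0.337 and 3.09 TPM. Levels of the members themselves were mostly low. The median of their mean TPM was 0.65, and 109 of the 232 had a mean of at least 1 CPM (counts scaled to the library total) over the 12 libraries. Within lines they varied about as much as other genes did. Among those 109, the median SD of log2 CPM was 0.169 in *phyB*-null, 0.256 in *phyC*-null and 0.178 in WT, against 0.184, 0.245 and 0.177 in the same lines over all genes at that level.

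A gene was called when its Benjamini-Hochberg adjusted p was below 0.01 in edgeR's quasi-likelihood test, fitted to all genes of the table. For *phyB*-null over WT, 64 of 232 members were called (27.6%), 29 of them higher and 35 lower in *phyB*-null. Over all genes 11.9% were called, 5.97% higher and 5.95% lower. For *phyC*-null over WT, 22 members were called (9.48%), with 9 higher and 13 lower in *phyC*-null, beside 0.796% of all genes (0.422% higher, 0.374% lower). Directly between the mutants, 17 members were called in *phyB*-null over *phyC*-null (7.33%), 10 higher and 7 lower in *phyB*-null, beside 3.41% of all genes (1.40% higher, 2.02% lower). Both directions therefore occurred in every comparison. Because the members were picked where lines differed, no test was placed on these shares.

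The median absolute log2 fold change of the members was 0.89 in *phyB*-null over WT, against 0.48 over all genes. It was 0.75 against 0.34 in *phyC*-null over WT and 0.53 against 0.40 in *phyB*-null over *phyC*-null. Genes with the same identifier numbers on the homeologous chromosome 2B had 0.67, 0.72 and 0.63 in the same order. A median above that of all genes was therefore not particular to 2A. The medians with sign of the members were near 0, at 0.02, 0.14 and -0.06 in the same order, so the members did not shift as a block. In 64 called members of *phyB*-null over WT, read in identifier order, the direction switched 23 times, and among the 22 of *phyC*-null over WT it switched 7 times. In all, 74 of the 232 members were called in at least 1 comparison and 158 in none, whereas 62756 of all 72120 genes were called in none.

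**Figure D1:**
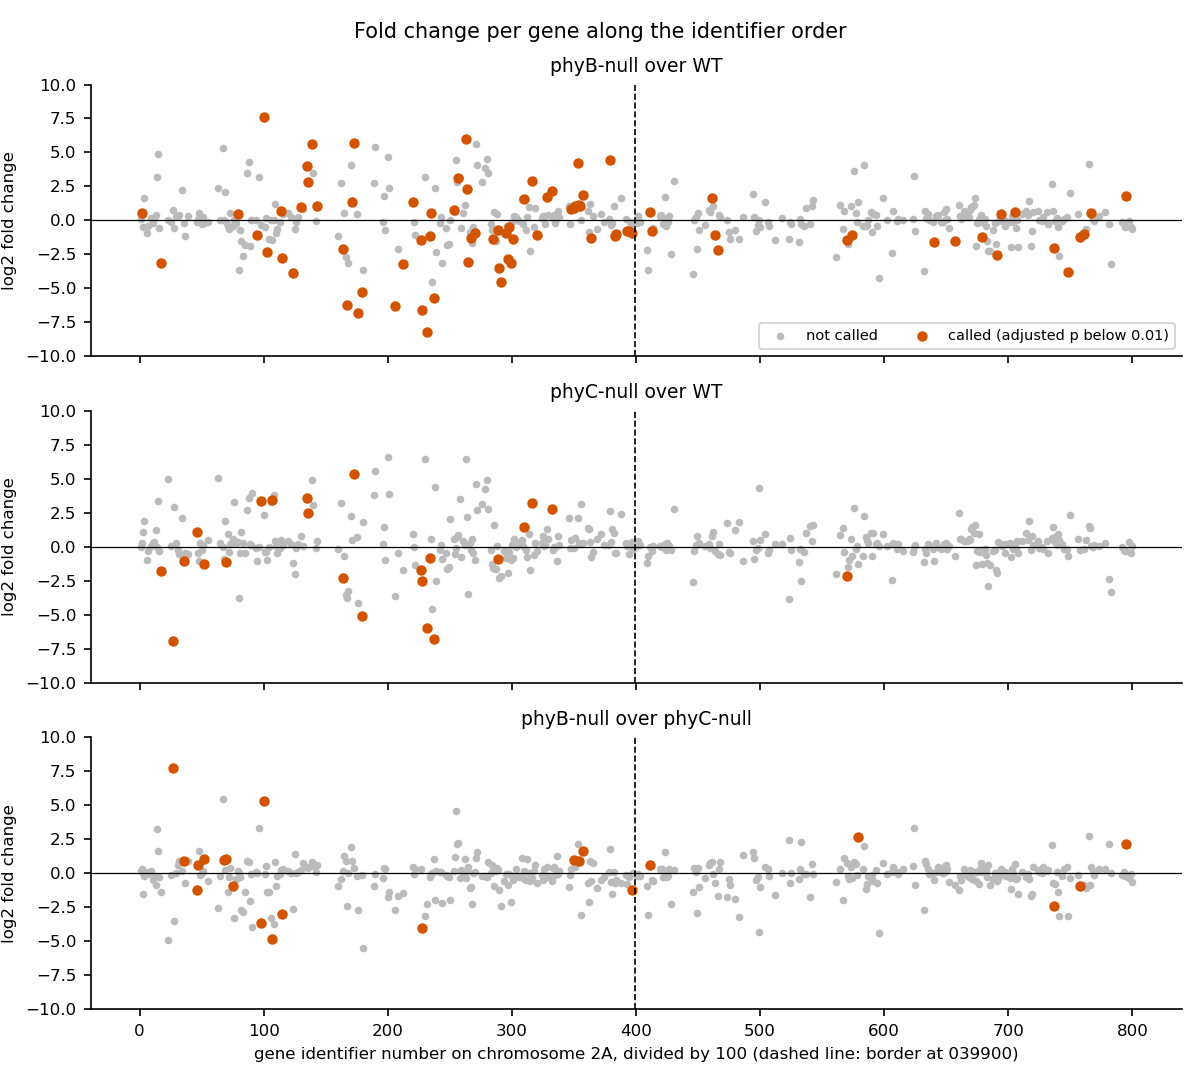
Log2 fold change of each gene (vertical axis) against its identifier number on chromosome 2A (horizontal axis, divided by 100) for *phyB*-null over WT, *phyC*-null over WT and *phyB*-null over *phyC*-null. Grey points are genes not called, orange points are called genes, and the dashed line marks the end of the members. Called genes lie on both sides of 0 in all panels, and *phyC*-null over WT has 22 called genes left of the line and 1 right of it.

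These counts depended on the test and, for 2 comparisons, on single libraries. DESeq2 called 49 members in *phyC*-null over WT (3.35% of all genes) and 36 in *phyB*-null over *phyC*-null (8.28% of all genes). For *phyC*-null over WT, the count was 13 without WT replicate 1, 2 or 3, while the share of all genes called was 0.492%, 0.487% and 0.456%. For *phyB*-null over *phyC*-null, the count was 9, 5 and 6 without *phyB*-null replicate 1, 3 or 4 (2.21%, 1.47% and 1.90% of all genes), and 9, 8 and 10 without *phyC*-null replicate 1, 2 or 4 (2.14%, 2.06% and 2.30% of all genes).

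To see which line stood apart, a line was taken as apart for a gene when all 4 of its libraries lay above, or all below, the other 8 in TMM-scaled CPM and its geometric mean was at least 2-fold from that of each other line. By that rule WT stood apart for 17 members (7.33%, against 0.767% of all genes), with WT higher for 8 and lower for 9, where all genes had 0.459% and 0.308%. The *phyC*-null line stood apart for 5 members (2.16%, against 0.361%), higher for 3 and lower for 2, where all genes had 0.219% and 0.141%. The *phyB*-null line stood apart for 3, all higher (1.29%, against 1.73% of all genes, 0.672% higher and 1.06% lower). WT was thus the line that most often differed from the other lines here.

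**Figure D2:**
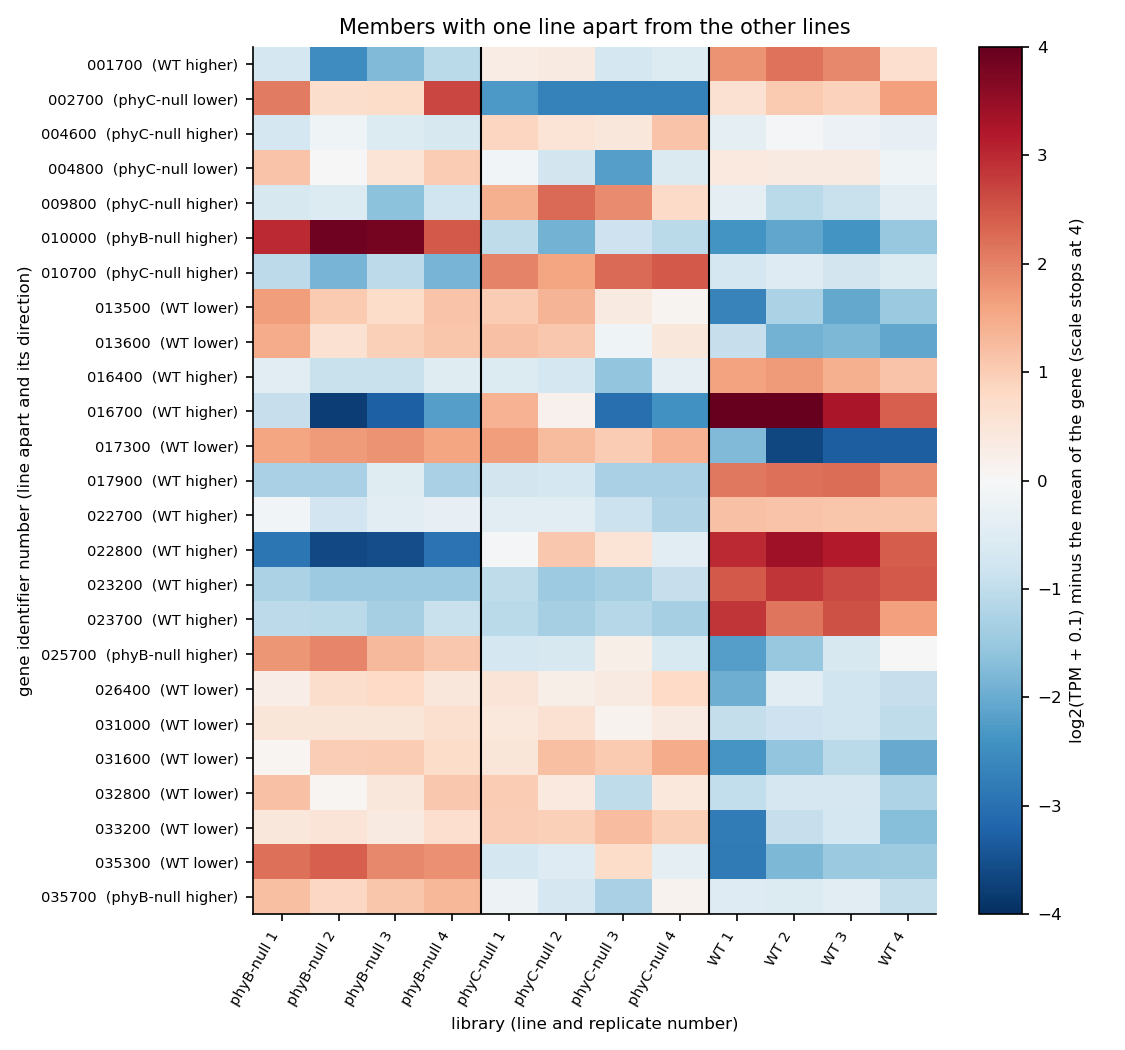
Heat map of the 25 members with a line apart, in identifier order from top to bottom, over the 12 libraries (4 *phyB*-null, 4 *phyC*-null, then 4 WT). Colour gives log2(TPM + 0.1) minus the mean of the gene, red above and blue below, and each row label gives the line apart and its direction. The *phyC*-null line stands apart in 5 rows near the top, and WT stands apart in 17 rows, 15 of them from TraesCS2A01G013500 to TraesCS2A01G033200.

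The lines that differed changed along the identifier order. Read off after the values were seen, 3 stretches could be described. Over all genes, 11.9% were called in *phyB*-null over WT, 0.796% in *phyC*-null over WT and 3.41% in *phyB*-null over *phyC*-null. In the first stretch, TraesCS2A01G000100 to TraesCS2A01G011000 (70 members), 6 members were called in *phyB*-null over WT (8.57%), 8 in *phyC*-null over WT (11.4%) and 11 in *phyB*-null over *phyC*-null (15.7%). The *phyB*-null over WT share here was below that of all genes in edgeR's quasi-likelihood test only. DESeq2 called 13 of the 70, and DESeq2 with edgeR's exact test 12, above their 17.1% and 14.9% of all genes. All 5 members with *phyC*-null apart lay here, from TraesCS2A01G002700 to TraesCS2A01G010700. In the middle stretch, TraesCS2A01G011100 to TraesCS2A01G034000 (130 members), 44 were called in *phyB*-null over WT (33.8%) and 14 in *phyC*-null over WT (10.8%), but 2 in *phyB*-null over *phyC*-null (1.54%). The share called between the mutants here was below that of all genes in edgeR's quasi-likelihood test. DESeq2 called 10 of the 130, near its 8.28% of all genes. DESeq2 with edgeR's exact test also called 10, above its 6.54% of all genes. WT stood apart for 15 members of this stretch, *phyB*-null for 1 and *phyC*-null for 0, beside 0.767%, 1.73% and 0.361% of all genes. In the last stretch, TraesCS2A01G034100 to TraesCS2A01G039900 (32 members), 14 were called in *phyB*-null over WT (43.8%), 0 in *phyC*-null over WT and 4 in *phyB*-null over *phyC*-null (12.5%). The 0 in *phyC*-null over WT is of edgeR's test, and 11 of the 32 had an unadjusted p below 0.05 while DESeq2 called 3. The counts of the first stretch were small and their order changed with the setting, with 5 in *phyB*-null over WT, 2 in *phyC*-null over WT and 4 in *phyB*-null over *phyC*-null by limma on log2(TPM + 1).

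**Figure D3:**
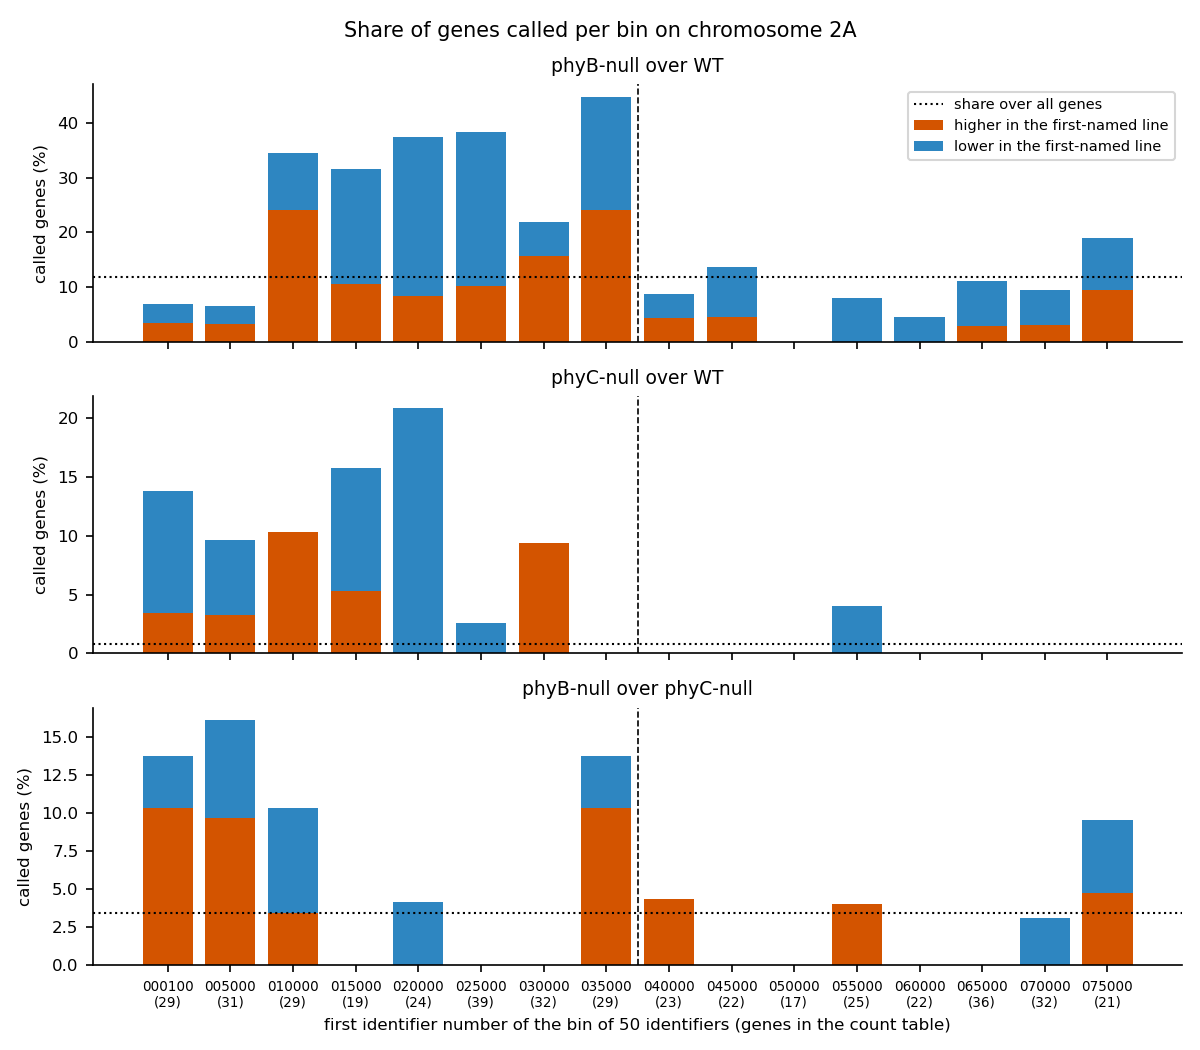
Share of genes called (vertical axis, percent) in each bin of 50 identifiers along chromosome 2A (horizontal axis, first identifier number and genes in the count table), for the 3 comparisons. Orange parts were higher and blue parts lower in the first-named line, the dotted line is the share over all genes, and the dashed line marks the end of the members. For *phyB*-null over WT the first bins stand at 6.90% and 6.45% and the next 6 between 21.9% and 44.8%, while *phyC*-null over WT has calls in each of the first 7 bins and in 1 bin after them.

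Not every gene within a stretch differed. Among members with a mean of at least 1 CPM, 25 of 54 in the middle stretch were within 1.5-fold of WT in *phyB*-null and 27 of 54 in *phyC*-null, beside 21 and 16 that were at least 2-fold away. Between the mutants, 44 of these 54 were within 1.5-fold. In the first stretch, 29 of 35 were within 1.5-fold of WT in *phyB*-null and 22 of 35 in *phyC*-null. The corresponding numbers in the last stretch were 7 of 20 in *phyB*-null and 16 of 20 in *phyC*-null. Genes with and without a difference lay side by side, and the longest run of adjacent called members was 6 in *phyB*-null over WT and 2 in *phyC*-null over WT.

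In the first stretch, the member with the largest difference between the mutants was TraesCS2A01G002700, described as an N-benzoyltransferase, a type of enzyme that transfers acyl groups to plant metabolites. It had 2.70, 0.978, 1.0 and 4.10 TPM in *phyB*-null, 0.0348, 0, 0 and 0 in *phyC*-null, and 0.902, 1.25, 1.15 and 1.95 TPM in WT. It was close to absent in *phyC*-null, with 2 counts over 4 libraries, and *phyB*-null and WT overlapped. The count ratio of *phyB*-null to *phyC*-null was 276 with an exact 95% counting interval of 75.9 to 2284, which covers counting error only.

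Members with higher levels in *phyC*-null were found beside it. TraesCS2A01G010700 had 1.56, 1.16, 1.93 and 2.18 TPM in *phyC*-null, against 0.159, 0.197, 0.155 and 0.191 TPM in WT and between 0.0165 and 0.102 TPM in *phyB*-null. The groups did not overlap, and its log2 fold change in *phyC*-null over WT was 3.41 ± 0.33 (SE). TraesCS2A01G004600 had 18.9, 15.1, 14.2 and 22.9 TPM in *phyC*-null, 6.23, 9.11, 7.03 and 6.58 TPM in *phyB*-null and 8.03, 9.87, 8.78 and 8.24 TPM in WT. All *phyC*-null libraries again lay above the other 8, with a log2 fold change of 1.12 ± 0.14 over WT. TraesCS2A01G009800, a weakly expressed gene, ranged from 0.437 to 1.42 TPM in *phyC*-null and reached at most 0.112 TPM in *phyB*-null and 0.146 TPM in WT. Its call over WT was lost without *phyC*-null replicate 2 and without any single WT library, whereas the other 2 kept theirs. None of these 3 has a description in the tables used.

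Other members of the first stretch were lower in *phyC*-null. The NBS-LRR gene TraesCS2A01G007000, described as RGA3 and belonging to the intracellular immune receptors of plants, had 1.67, 1.84, 1.47 and 2.38 TPM in *phyC*-null, against 3.15, 3.14, 4.29 and 4.37 TPM in *phyB*-null and 4.62, 4.28, 3.97 and 4.39 TPM in WT. The *phyC*-null values lay below all others, with a log2 fold change of -1.14 ± 0.14 over WT. Its neighbour TraesCS2A01G006800, described as RGA4, averaged 0.667 ± 0.188 TPM in *phyC*-null, against 1.28 ± 0.241 TPM in *phyB*-null and 1.33 ± 0.0584 TPM in WT (SD, n = 4), and was called between the mutants but not in *phyC*-null over WT. The call between the mutants was lost without *phyB*-null replicate 1, 3 or 4 and without *phyC*-null replicate 1 or 2, while the call of TraesCS2A01G007000 over WT was kept with any library left out.

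A hexokinase gene, TraesCS2A01G005200, encoding an enzyme that phosphorylates glucose, had 1.47, 1.10, 1.06 and 1.30 TPM in *phyC*-null, below the 2.43 to 2.65 TPM in *phyB*-null and the 2.6 to 4.13 TPM in WT. The log2 fold change was -1.23 ± 0.20 in *phyC*-null over WT. TraesCS2A01G003600 was lower in *phyC*-null as well, at -1.07 ± 0.17 over WT. Both calls were lost without *phyC*-null replicate 1, 2 or 4 and without WT replicate 1, 2 or 3, and that of the hexokinase gene also without WT replicate 4. TraesCS2A01G004800, the non-catalytic TRM6 subunit of a tRNA methyltransferase, averaged 1.36 ± 0.71 TPM in *phyC*-null, 3.91 ± 1.32 TPM in *phyB*-null and 2.78 ± 0.48 TPM in WT (SD, n = 4). It met the rule for *phyC*-null apart in scaled CPM, although 1 *phyC*-null library overlapped WT in TPM, and it was called in no comparison. Between the mutants alone, the G-patch gene TraesCS2A01G004700, of a family of RNA-processing proteins, was called at 0.61 ± 0.11 and the membrane transporter TraesCS2A01G007500 of the Major Facilitator Superfamily at -0.96 ± 0.14 in *phyB*-null over *phyC*-null. The transporter's call was lost without *phyB*-null replicate 3 or 4, and that of TraesCS2A01G004700 without any single library but *phyC*-null replicate 3.

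The first stretch also held members that did not follow *phyC*-null. TraesCS2A01G001700, a leucine-rich repeat receptor-like kinase, a class of cell-surface receptor, had 1.32, 0.308, 0.583 and 1.0 TPM in *phyB*-null, 2.74, 2.82, 1.32 and 1.48 in *phyC*-null and 7.97, 10.3, 8.69 and 3.57 TPM in WT. WT was above both mutants in every library. The log2 fold changes were -3.16 ± 0.35 in *phyB*-null and -1.78 ± 0.29 in *phyC*-null, and the call in *phyC*-null was lost without *phyC*-null replicate 1, 2 or 4 and without WT replicate 1, 2 or 3. TraesCS2A01G010000, named after a tobacco gene that is rapidly induced when the Cf-9 receptor perceives the fungal peptide Avr9, had 4.01, 7.68, 7.27 and 2.79 TPM in *phyB*-null, against 0.0421 to 0.196 TPM in *phyC*-null and 0 to 0.0853 TPM in WT. It had 1012 counts over the *phyB*-null libraries, 31 over *phyC*-null and 5 over WT. The first called gene in identifier order, TraesCS2A01G000200, differed little, at 4.64 ± 0.458 TPM in *phyB*-null and 3.40 ± 0.466 TPM in WT (SD, n = 4), a call that was lost without *phyB*-null replicate 3 or 4 and without WT replicate 1, 3 or 4.

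**Figure D4:**
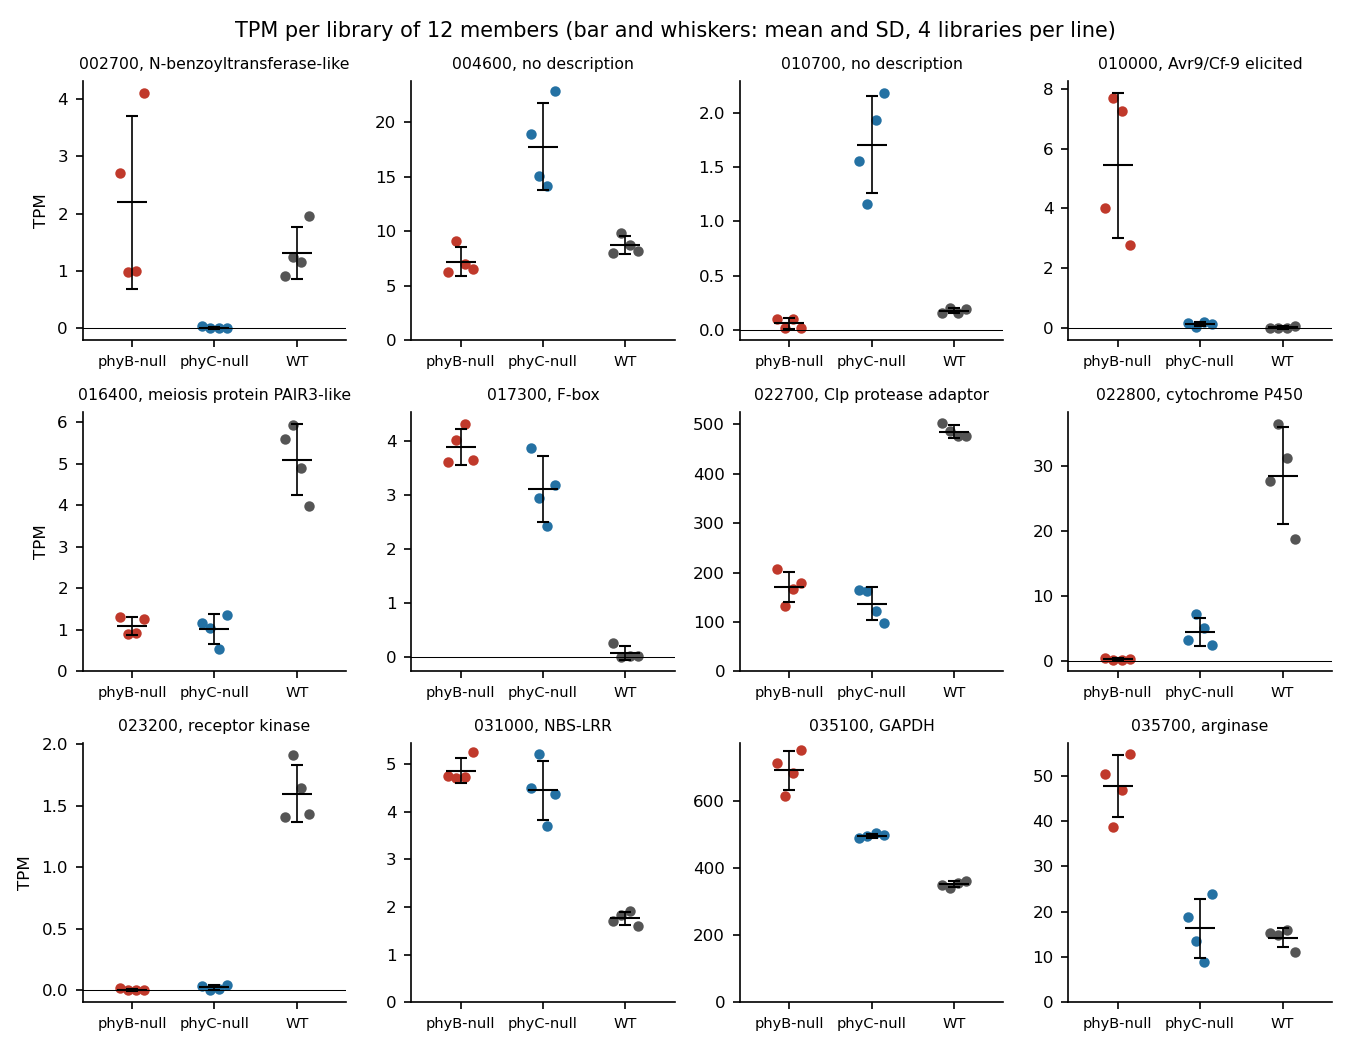
TPM of 12 members in each library (vertical axis, each panel with its own scale) by line (*phyB*-null, *phyC*-null, then WT). Points are libraries, and the bar and whiskers give the mean and SD of 4 libraries. TraesCS2A01G002700, TraesCS2A01G004600 and TraesCS2A01G010700 have *phyC*-null apart, TraesCS2A01G016400 to TraesCS2A01G031000 have WT apart in either direction, and TraesCS2A01G010000, TraesCS2A01G035100 and TraesCS2A01G035700 are highest in *phyB*-null.

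In the middle stretch, the members with WT apart included genes of high expression. TraesCS2A01G022700 encodes a ClpS adaptor, a protein that selects substrates for the Clp protease. It had 206.3, 131.5, 167.2 and 177.8 TPM in *phyB*-null, 165.5, 163.2, 121.4 and 97.0 in *phyC*-null and 503.2, 485.5, 475.5 and 475.5 TPM in WT. The mutants overlapped each other and lay far below WT, with log2 fold changes of -1.41 ± 0.10 in *phyB*-null and -1.72 ± 0.19 in *phyC*-null. TraesCS2A01G016400, annotated as the meiosis protein PAIR3, which in rice acts in the pairing of homologous chromosomes, had 1.31, 0.905, 0.913 and 1.25 TPM in *phyB*-null, 1.17, 1.05, 0.528 and 1.36 in *phyC*-null and 5.59, 5.93, 4.90 and 3.98 TPM in WT. Here too the mutants overlapped below WT, at -2.11 ± 0.14 in *phyB*-null and -2.26 ± 0.18 in *phyC*-null.

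Of the 3 described receptor kinase genes in this stretch, 2 were near 0 in both mutants. TraesCS2A01G023200 had 1 count over the *phyB*-null libraries and 8 over the *phyC*-null libraries, against 467 in WT, where it stood at 1.41, 1.91, 1.64 and 1.43 TPM. The ratio of WT to *phyB*-null counts was 453, with an exact 95% counting interval of 80.9 to 17935. TraesCS2A01G023700 likewise had 4 counts in *phyB*-null and 2 in *phyC*-null, against 240 in WT, where it ranged from 0.681 to 1.71 TPM. The NBS-LRR gene TraesCS2A01G017900, named after its values were seen, had 3 counts in *phyB*-null, 4 in *phyC*-null and 139 in WT. For each of these genes the WT libraries lay above all mutant libraries.

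The cytochrome P450 gene TraesCS2A01G022800, of a large family of oxidising enzymes, was the exception in that the mutants differed as well. It had 0.376, 0.186, 0.200 and 0.350 TPM in *phyB*-null, 3.22, 7.23, 5.05 and 2.44 in *phyC*-null and 27.6, 36.4, 31.2 and 18.7 TPM in WT. No line overlapped another. The log2 fold changes were -6.57 ± 0.23 in *phyB*-null over WT, -2.50 ± 0.35 in *phyC*-null over WT and -4.07 ± 0.42 in *phyB*-null over *phyC*-null, and the *phyC*-null call was lost without WT replicate 1, 2 or 3. TraesCS2A01G016700, which has no description, had at most 0.751 TPM in *phyB*-null and 4.10, 1.72, 0.0978 and 0.197 TPM in *phyC*-null, against 32.2, 26.8, 15.3 and 8.28 TPM in WT. It was called in *phyB*-null over WT (-6.22 ± 0.62) and not in *phyC*-null over WT, where the *phyC*-null libraries spread widely.

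Members higher in both mutants lay between these. The F-box gene TraesCS2A01G017300, of a family that recruits substrates to ubiquitin ligases, had 3.62, 4.01, 4.31 and 3.64 TPM in *phyB*-null, 3.88, 2.95, 2.43 and 3.19 in *phyC*-null and 0.266, 0, 0.0288 and 0.029 TPM in WT. WT held 10 counts in all, against 530 in *phyB*-null and 487 in *phyC*-null, and the log2 fold changes were 5.70 ± 0.53 in *phyB*-null and 5.34 ± 0.58 in *phyC*-null. The fructokinase-like gene TraesCS2A01G013600 had 14.3, 7.72, 9.79 and 11 TPM in *phyB*-null, 11.5, 10.7, 4.43 and 6.97 in *phyC*-null and 2.6, 1.28, 1.36 and 1.12 TPM in WT, with WT below every mutant library. Its neighbour TraesCS2A01G013500, a cytochrome P450 described as 85A1, which in Arabidopsis and tomato acts in brassinosteroid synthesis, had 292 counts in *phyB*-null and 249 in *phyC*-null, against 18 in WT.

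The NBS-LRR gene TraesCS2A01G031000, described as RPP13-like, had 4.75, 4.71, 4.73 and 5.25 TPM in *phyB*-null, 4.50, 5.22, 3.71 and 4.38 in *phyC*-null and 1.70, 1.84, 1.91 and 1.60 TPM in WT. The mutants overlapped above all WT libraries, at log2 fold changes of 1.58 ± 0.10 in *phyB*-null and 1.44 ± 0.13 in *phyC*-null. TraesCS2A01G031600, a putative component of the exocyst, a complex that tethers secretory vesicles to the plasma membrane, had 1.38, 2.70, 2.76 and 2.22 TPM in *phyB*-null, 1.85, 3.13, 2.77 and 3.80 in *phyC*-null and 0.174, 0.367, 0.565 and 0.247 TPM in WT. The last member called in *phyC*-null over WT, TraesCS2A01G033200, had 1.71 ± 0.155 TPM in *phyB*-null, 2.52 ± 0.267 TPM in *phyC*-null and 0.407 ± 0.272 TPM in WT (SD, n = 4). That call was lost without any single WT library and without *phyC*-null replicate 1, 2 or 4.

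Some members of the middle stretch were called in *phyB*-null over WT alone. The DNA glycosylase gene TraesCS2A01G022000, of a family that removes oxidised bases from DNA, averaged 6.49 ± 0.438 TPM in *phyB*-null, 4.98 ± 1.28 TPM in *phyC*-null and 2.69 ± 0.478 TPM in WT (SD, n = 4). Its log2 fold change was 1.39 ± 0.14 in *phyB*-null and 0.97 ± 0.18 in *phyC*-null. TraesCS2A01G032800, which met the rule for WT apart, was at 1.73 ± 0.18 in *phyB*-null and 1.28 ± 0.25 in *phyC*-null. The glycosyltransferase gene TraesCS2A01G029100 was at -4.56 ± 0.52 and -2.16 ± 0.39 in the same order, from 5 counts in *phyB*-null, 33 in *phyC*-null and 133 in WT. None of these 3 passed the threshold in *phyC*-null over WT. The members TraesCS2A01G029700 and TraesCS2A01G030100 were called lower in *phyB*-null, at -2.81 ± 0.58 and -1.33 ± 0.23, and the first of these calls was lost without *phyB*-null replicate 3 or 4 and without WT replicate 1, 2 or 3. Only TraesCS2A01G025700 had *phyB*-null apart in this stretch, at 1.27 ± 0.373 TPM in *phyB*-null, 0.258 ± 0.125 TPM in *phyC*-null and 0.154 ± 0.159 TPM in WT (SD, n = 4).

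In the last stretch, 4 of the members named were called in *phyB*-null over both other lines. The arginase gene TraesCS2A01G035700, encoding the enzyme that splits arginine into ornithine and urea, had 50.4, 38.6, 46.8 and 54.8 TPM in *phyB*-null, 18.9, 13.6, 8.81 and 24.0 in *phyC*-null and 15.3, 14.8, 15.9 and 11.2 TPM in WT. The *phyB*-null libraries lay above all others, and *phyC*-null overlapped WT. Its log2 fold change was 1.84 ± 0.11 over WT and 1.61 ± 0.18 over *phyC*-null. TraesCS2A01G035400 and TraesCS2A01G035000 showed the same order at 1.16 ± 0.14 and 0.92 ± 0.19 over WT. TraesCS2A01G039700 went the other way, with 0.438, 0.497, 0.353 and 0.458 TPM in *phyB*-null, 1.46, 1.03, 0.791 and 0.990 in *phyC*-null and 0.826, 0.883, 0.999 and 0.832 TPM in WT. With single libraries left out, the calls of the arginase gene were kept, those of TraesCS2A01G035400 were lost over *phyC*-null alone (without *phyB*-null replicate 3 or 4 or *phyC*-null replicate 2), and those of TraesCS2A01G035000 were lost over WT without *phyB*-null replicate 3 or 4 or WT replicate 2, and over *phyC*-null in all cases but *phyC*-null replicate 3. Those of TraesCS2A01G039700 were kept only without *phyB*-null replicate 2 and, over *phyC*-null, without *phyC*-null replicate 3.

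The most abundant member was TraesCS2A01G035100, a glyceraldehyde-3-phosphate dehydrogenase, which acts in the interconversion of sugar phosphates. It had 716.3, 616.4, 686.0 and 752.5 TPM in *phyB*-null, 490.9, 495.4, 505.5 and 498.6 in *phyC*-null and 349.6, 341.5, 357.1 and 363.7 TPM in WT. The lines did not overlap, but only *phyB*-null over WT was called (1.08 ± 0.10), with 0.62 ± 0.17 in *phyC*-null over WT. The chalcone synthase gene TraesCS2A01G035300, for the first committed enzyme of flavonoid synthesis, had 9.60, 11, 7.94 and 7.29 TPM in *phyB*-null, 1.19, 1.38, 3.41 and 1.55 in *phyC*-null and 0.194, 0.506, 0.652 and 0.679 TPM in WT. All 3 lines were separate in that order, at 4.24 ± 0.31 in *phyB*-null over WT and 2.11 ± 0.52 in *phyC*-null over WT, of which the first was called.

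The share called in *phyB*-null over WT was 44.8% among the tested members from TraesCS2A01G035000 on and 8.70% among the tested genes from TraesCS2A01G040000 to TraesCS2A01G044900. The last gene inside, TraesCS2A01G039800, averaged 1.10 TPM in *phyB*-null, 1.15 TPM in *phyC*-null and 1.31 TPM in WT. The first outside, TraesCS2A01G040100, averaged 11 TPM in *phyB*-null, 13.3 TPM in *phyC*-null and 13.5 TPM in WT. For *phyB*-null over WT, 6 tested genes lay between TraesCS2A01G039700 and the next called gene, TraesCS2A01G041100 (0.64 ± 0.09). One of these, TraesCS2A01G040900, had 13 counts in *phyB*-null, 30 in *phyC*-null and 60 in WT, and its log2 fold change of -2.14 ± 0.61 in *phyB*-null over WT passed the threshold by DESeq2 and by the exact test of edgeR, but not in its quasi-likelihood fit. For *phyC*-null over WT, 104 tested genes lay between TraesCS2A01G033200 and the next called gene, TraesCS2A01G057000. Calls in *phyC*-null over WT thus ended before the border that defines the members. DESeq2, with more calls, placed the last at TraesCS2A01G036400 and the next at TraesCS2A01G053300.

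Among the next 198 genes, 19 were called in *phyB*-null over WT (9.60%, 6 higher and 13 lower), 1 in *phyC*-null over WT (0.505%) and 5 in *phyB*-null over *phyC*-null (2.53%). In the 3501 genes beyond them on chromosome 2A, the shares were 15.8%, 0.514% and 4.46%. Over all genes they were 11.9%, 0.796% and 3.41%, so each share of the next genes lay below that of all genes in edgeR's quasi-likelihood test. With DESeq2 the counts were 34, 7 and 16 of the 198 in the same order of comparisons. Over all genes DESeq2 called 17.1%, 3.35% and 8.28%, so by that test the next genes were near the share of all genes. The *phyB*-null over WT count of the next genes was 10 without *phyB*-null replicate 3 or without WT replicate 2 (7.31% and 7.73% of all genes). The count between the mutants was 3 without *phyB*-null replicate 3 or 4 and 11 without *phyC*-null replicate 3. No gene of this block had *phyC*-null apart (0.361% of all genes), while *phyB*-null and WT stood apart for 2 each (1.01%, against 1.73% and 0.767% of all genes).

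Most calls in the next genes were in *phyB*-null over WT, as was the case over all genes. TraesCS2A01G079500, a 2-oxoglutarate dehydrogenase of the mitochondrial citric acid cycle, had 5.88, 4.63, 5.34 and 5.32 TPM in *phyB*-null, 1.36, 1.54, 0.863 and 1.28 in *phyC*-null and 1.67, 1.79, 1.55 and 1.55 TPM in WT. The F-box gene TraesCS2A01G073700 was lower in *phyB*-null, at -2.05 ± 0.22 over WT and -2.43 ± 0.24 over *phyC*-null. TraesCS2A01G075800, for a methyl-CpG-binding domain protein, a reader of DNA methylation, was also lower in *phyB*-null, at -1.21 ± 0.13 over WT. The cyclopropane fatty acid synthase gene TraesCS2A01G046100 was higher, at 1.65 ± 0.14. TraesCS2A01G057000, the only gene of the block called in *phyC*-null over WT, had 2.06 ± 0.696 TPM in *phyB*-null, 1.23 ± 0.259 TPM in *phyC*-null and 5.85 ± 1.67 TPM in WT (SD, n = 4), and WT also stood apart for TraesCS2A01G069100.

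Described members fell into several families, although descriptions came from tables that list mainly regulated genes and so favour called members (43 members had a description, 28 of them called). Of all members, 27.6% were called in *phyB*-null over WT, 9.48% in *phyC*-null over WT and 7.33% in *phyB*-null over *phyC*-null. Over all genes the shares were 11.9%, 0.796% and 3.41%. The counts per family therefore do not show that a family was called more often than other members. Of 11 disease resistance genes, 4 were called in *phyB*-null over WT (2 higher, 2 lower), 4 in *phyC*-null over WT (1 higher, 3 lower) and 2 in *phyB*-null over *phyC*-null, both higher. TraesCS2A01G023400, described as RPP13-like, was the most abundant of the called ones by counts and had 10.6, 10.1, 10.1 and 10.7 TPM in *phyB*-null, 13.3, 14.8, 9.05 and 16.1 in *phyC*-null and 26.7, 27.2, 25.1 and 23.1 TPM in WT. WT lay above both mutants, and its call in *phyC*-null over WT was lost without WT replicate 1, 2 or 3. TraesCS2A01G026400, named after its values were seen, went the other way, at 0.479 TPM in *phyB*-null, 0.446 TPM in *phyC*-null and 0.104 TPM in WT. Its call, in *phyB*-null over WT, was lost without *phyB*-null replicate 2, 3 or 4 and without WT replicate 2, 3 or 4. TraesCS2A01G003100 was not called, with 1.22 TPM in *phyB*-null, 0.83 TPM in *phyC*-null and 1.05 TPM in WT. Related resistance genes can share sequence, and reads matching several copies equally were not counted, so their levels are uncertain to that extent.

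Of 4 receptor kinase genes, 3 were called lower than WT in each mutant, and the fourth, TraesCS2A01G024700, was not called, with 2.90 ± 1.07 TPM in *phyB*-null, 3.20 ± 1.07 TPM in *phyC*-null and 4.59 ± 1.89 TPM in WT (SD, n = 4). Of 5 cytochrome P450 genes, 3 were called in *phyB*-null over WT (2 higher, 1 lower) and 2 in *phyC*-null over WT (1 in each direction). TraesCS2A01G013000, like TraesCS2A01G013500 described as 85A1, was at 1.0 ± 0.22 in *phyB*-null, a call lost without any single library but *phyB*-null replicate 2, and was not called in *phyC*-null (0.76 ± 0.29). Of 8 genes on a list named primary metabolism, 4 were called in *phyB*-null over WT, all higher, and 2 in *phyC*-null over WT, in opposite directions. The list was drawn by words in the descriptions, and 1 of the 4 higher genes was the chalcone synthase gene TraesCS2A01G035300, of flavonoid synthesis. The abundant ATP sulfurylase gene TraesCS2A01G032500, for the entry step of sulfate assimilation, was called in no comparison, at 61.1 ± 8.04 TPM in *phyB*-null, 82.5 ± 16.2 TPM in *phyC*-null and 51.7 ± 8.84 TPM in WT (SD, n = 4). Of 4 genes on a list named RNA processing and DNA repair, 2 were called in *phyB*-null over WT, in opposite directions, and 1 was called lower in *phyC*-null over WT. The gene called lower in both was TraesCS2A01G016400, annotated as the meiosis protein PAIR3.

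Weakly expressed members differed in which lines had reads at all. No count was found over the 4 libraries for 13 members in *phyB*-null (5.60%, against 3.69% of all genes), 6 in *phyC*-null (2.59%, against 1.94%) and 29 in WT (12.5%, against 3.25%). In the middle stretch, 16 members lacked any WT count, and all 16 had counts in both mutants. In the first stretch, 12 lacked a WT count, of which 4 had counts in both mutants. None of the members without counts in a line reached 1 CPM in another, so these differences rest on few reads, and a gene enters the table only through a library in which it has counts. Of the 232 members, 171 reached 3 counts in every line, 28 in 2 lines and 33 in 1 line.

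The starts of other chromosomes gave the same comparison over the same identifier numbers, a set of values added after the members had been seen. In *phyC*-null over WT, 22 genes were called on 2A, against between 0 and 7 on each of the other 13 chromosomes. The highest of the others was the homeologous chromosome 2B, with 7 of 197 genes (3.55%). In *phyB*-null over WT, the share was 27.6% on 2A, against a range from 5.21% on 1B to 19.6% on 3B. In *phyB*-null over *phyC*-null, the share on 2A (7.33%) lay inside the range of the others, from 1.90% on 1B to 8.04% on 3B. WT stood apart for 17 genes on 2A and for 0 to 5 per chromosome elsewhere, *phyC*-null for 5 on 2A and for 0 to 4 elsewhere, and *phyB*-null for 3 on 2A and for 1 to 11 elsewhere. The part of other stock differences in these shares was not tested.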

How the data were processed

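Single-end reads of 100 bp were trimmed by the authors and aligned to the IWGSC RefSeq v1.0 assembly using GSNAP, after which HTSeq counted those with a unique position per gene model. Its strand setting is not given in the sources used here. The deposited raw counts were not normalized, and genes with fewer than 3 counts in every library had been discarded by the authors. The deposited TPM cover 190459 models without a filter. All 12 libraries were used, and 0 columns were set aside.

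The members and gene lists were chosen with earlier results of these data known. Counts were fitted with edgeR 4.0.16 in R 4.3.3 (TMM factors, quasi-likelihood test, the 8 libraries of each pair of lines, no covariates), and p-values were adjusted over all 72120 genes. The methods place 2 plants of every line on each of 2 sequencing lanes without saying which, so lane could not enter the fits, and whether plants shared a tray or extraction is not given in the sources used here, so p-values measure the spread between these samples. Fold changes are the first-named line over the second, and SE was derived from the F statistic. Geometric means for lines apart used a prior of 0.5 CPM. With 1 to 3 counts in a line, the ratio of counts is given with its exact 95% interval. Alternatives were DESeq2 1.42.0 alone or with edgeR's exact test, other factors, filters and thresholds, a replicate block, all lines in a fit, limma 3.58.1 on log2(TPM + 1) or log2(TPM + 0.1), and each library left out.

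Genes were named by rule: up to 8 per direction and comparison with the largest change among called members with at least 1 CPM and no overlap, up to 4 per line apart and direction, the 4 most abundant of each list, the called genes at the ends and at the border, and the 2 largest changes per direction and comparison in the next genes. Stretches, gene counts by stretch and values for other chromosomes were added after the values were seen. No coordinates or sequences are given, since the reference used here has another assembly and its identifiers do not match.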

Additional observations from a re-analysis of the deposited data

Results flagged for a closer look

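A library far from the other 3 of its line was looked for in the TPM of the named genes, by Dixon's 95% critical value for the gap to the nearest library over the range. Of 134 groups of 4 libraries, 9 had such a library, and chance gives about 1 in 20. In *phyC*-null replicate 3, TraesCS2A01G000200 was low at 2.68 TPM, against 4.20 to 4.34 TPM in the other libraries of the line, and TraesCS2A01G030100 was low at 0.385 TPM, against 1.53 to 1.69 TPM. The same library was high for TraesCS2A01G033200 at 2.92 TPM, against 2.35 to 2.43 TPM, and for TraesCS2A01G035300 at 3.41 TPM, against 1.19 to 1.55 TPM. This library also had the lowest TMM factor (0.761), and the part of that in these values was not tested.

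In WT, replicate 4 was low for TraesCS2A01G004800 at 2.06 TPM, against 2.98 to 3.07 TPM, and for TraesCS2A01G029700 at 0.444 TPM, against 1.44 to 1.64 TPM. Replicate 1 was high for TraesCS2A01G013600 at 2.6 TPM, against 1.12 to 1.36 TPM, and replicate 3 was high for TraesCS2A01G035400 at 4.39 TPM, against 3.25 to 3.42 TPM. In *phyB*-null, replicate 4 was high for TraesCS2A01G031000 at 5.25 TPM, against 4.71 to 4.75 TPM.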

How the results depend on the processing

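Over the members, the count for *phyB*-null over WT stayed within 1.5 times of 64 under every alternative (46 to 61 with a library left out). In *phyC*-null over WT (22), the members called numbered 49 with DESeq2, 46 with both tools, 11 and 14 with limma at a pseudocount of 1 and 0.1, 45 at an adjusted p below 0.05 and 13 to 24 with a library left out. In *phyB*-null over *phyC*-null (17), they numbered 36, 33, 6 and 10, and 38 at the same settings and 5 to 24 with a library left out. Over all genes, DESeq2, both tools and the limma fits called 3.35%, 2.76%, 0.412% and 0.515% in *phyC*-null over WT. Between the mutants they called 8.28%, 6.54%, 1.57% and 1.74%. With a library left out, the shares of all genes ran from 0.456% to 1.33% and from 1.47% to 4.90% in the same order. In the next genes, *phyB*-null over WT (19) gave 34 with DESeq2, 11 and 10 with limma, 47 at an adjusted p below 0.05 and 10 to 20 with a library left out, and *phyC*-null over WT (1) gave 7, 0 and 1, 5, and 1 to 2, with 6 for both tools. *phyB*-null over *phyC*-null (5) gave 16 with DESeq2, 13 with both tools, 10 with all lines in a fit, 2 and 3 with limma, 16 at an adjusted p below 0.05, 3 at 2-fold or more and 3 to 11 with a library left out. Between the mutants, 5.50% of all genes were called with all lines in a fit and 2.65% at 2-fold or more. For *phyB*-null over WT, the shares of all genes were 17.1% with DESeq2, 7.38% and 7.51% with limma, and 7.31% to 11.7% with a library left out. At an adjusted p below 0.05, 21.4% of all genes were called in *phyB*-null over WT, 2.71% in *phyC*-null over WT and 8.66% in *phyB*-null over *phyC*-null. Without a minimum fold, *phyB*-null stood apart for 21 members and 18 of the next genes, *phyC*-null for 19 and 5, and WT for 50 and 14. On TPM, *phyC*-null stood apart for 3 members and WT for 1 of the next genes. The shares of all genes under these changed rules for lines apart are not given here, so the counts show only how the rule moves them.

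The deviations of same-numbered libraries of different lines correlated between -0.53 and 0.55, and in no comparison were all 4 pairs above 0.1, so the numbers were not taken to pair samples. With the replicate block, *phyB*-null over WT gave 45 members and 10 of the next genes, *phyC*-null over WT 21 and 2, and *phyB*-null over *phyC*-null 13 and 4. Over all genes the block fit called 7.47%, 1.27% and 2.53% in the same order. Of 80 called values of named genes, none changed direction, and 51 were called in every setting that left out a library. Per stretch, *phyB*-null over WT ranged from 3 to 13 calls in the first, 30 to 50 in the middle and 10 to 14 in the last, *phyC*-null over WT ranged from 2 to 13 calls in the first, 9 to 33 in the middle and 0 to 3 in the last over all alternatives, and *phyB*-null over *phyC*-null from 3 to 18, 1 to 10 and 1 to 8. The causes of these shifts were not tested. Low counts limit the 123 members below 1 CPM.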

Other observations

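Low confidence gene models of chromosome 2A carry an identifier sequence of their own, so their numbers do not line up with those of the high confidence genes. In the first 20 of them in the count table, numbered below 010000, 0 were called in *phyB*-null over WT by edgeR's quasi-likelihood test, 3 in *phyC*-null over WT (1 higher, 2 lower) and 4 in *phyB*-null over *phyC*-null (3 higher, 1 lower). For the 0 in *phyB*-null over WT, 3 had an unadjusted p below 0.05 and DESeq2 called 1. The *phyC*-null line stood apart for 2 of these models. In the 47 that followed, numbered below 040000, the calls were 8, 4 and 0 in the same order of comparisons, and WT stood apart for 3. For the 0 between the mutants, 13 had an unadjusted p below 0.05 and DESeq2 called 1. Among the 32 models numbered from there to 060000, 2 were called in *phyB*-null over WT by edgeR and 0 in *phyC*-null over WT or between the mutants, where 3 and 5 had an unadjusted p below 0.05 and DESeq2 called 1 and 0. Over all genes, edgeR called 11.9%, 0.796% and 3.41% in the same order of comparisons. The *phyC*-null line stood apart for 0.361% of all genes and WT for 0.767%. The 2 of 32 in *phyB*-null over WT were a smaller share than that of all genes.

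The summed TPM of the members ranged from 1698.1 to 2097.8 in *phyB*-null, from 1388.9 to 1809.1 in *phyC*-null and from 1840.5 to 1996.2 in WT. Every *phyC*-null library lay below every WT library in this total, while *phyB*-null overlapped both. The total is weighted to abundant members, so it does not show a lowering across the members. Its mean was 1943.8 TPM in WT and 1652.2 TPM in *phyC*-null, a smaller fall than that of TraesCS2A01G022700 alone. The most abundant member, TraesCS2A01G035100, was higher in *phyC*-null than in WT. The median log2 fold change of the members in *phyC*-null over WT was 0.14.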
